A study of Mus musculus with 2 samples.

Results

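The 10 genes described here serve fatty acid uptake and triglyceride synthesis in the absorptive epithelium of the intestine: Fabp1, Fabp2, Cd36, Scarb1, Slc27a4, Acsl5, Mogat2, Dgat1, Dgat2 and Plin2. They were looked up by symbol in the count matrices of 2 single-cell RNA libraries, where all 10 of the 10 were found among 52636 gene IDs and each had a UMI in both libraries. One library came from mouse embryonic intestine of the genotype Casp8 C362A/C362A Mlkl -/-, in which caspase-8 carries a changed active site and the necroptosis effector MLKL is missing (Casp8-mutant). The other came from intestine that was Mlkl -/- with no Casp8 allele named (Mlkl-null). Both were taken at E18.5 on a C57BL/6 background, both share the Mlkl -/- genotype, so that no group has wild-type Mlkl, and the design text names 1 embryo of each genotype, which gave 1 library each. No test was therefore made, no difference has a replicate check, and every interval is a 95% interval for counting error only.

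Fatty acids from luminal fat enter enterocytes by diffusion and with the help of membrane proteins such as CD36 and the fatty acid transport protein FATP4. Inside, fatty acid binding proteins carry them, acyl-CoA synthetases activate them, and acyltransferases at the endoplasmic reticulum join them to monoacylglycerol and then to diacylglycerol. The triglyceride leaves the cell in chylomicrons or is held for a time in droplets coated by perilipins. Some genes of this route, such as Fabp1 and Fabp2, are markers of mature enterocytes, the type that lines the villi. These markers are low in the dividing progenitors and the mucus or defensin secreting cells. Others, such as Cd36 and Plin2, are not confined to enterocytes.

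There were 1014 barcodes with 2804929 UMIs (unique molecular identifiers, each standing for 1 captured RNA molecule) in the Casp8-mutant library, and 1478 barcodes with 6290008 UMIs in the Mlkl-null library. After cells with fewer than 500 detected genes and called doublets were left out, 873 Casp8-mutant and 1435 Mlkl-null cells remained, of which 588 and 1187 were epithelial by their markers. Epithelial markers summed to 8477 CPM in Casp8-mutant and 8539 CPM in Mlkl-null cells of that class, where a level is given as CPM, the UMIs of a gene per 1000000 UMIs of its cell class in that library. Casp8 had 232 UMIs in Casp8-mutant and 399 in Mlkl-null cells, counts that say nothing of a changed codon, and Mlkl had 13 UMIs in Casp8-mutant and 1 in Mlkl-null cells. The libraries shared 2 barcodes, and they differed in sex-linked RNA, with 8271 Xist and 2 Ddx3y UMIs in the Casp8-mutant library against 2 and 276 in the Mlkl-null library. The labels name whole intestine in one place and small intestine in another, and summed levels of 6 genes of the proximal small intestine were 75.3 CPM in Casp8-mutant and 330 CPM in Mlkl-null epithelium. Those of 9 distal small intestine genes were 1351 CPM in Casp8-mutant and 1759 CPM in Mlkl-null epithelium, and those of 8 colon genes 27.1 CPM in Casp8-mutant and 30.0 CPM in Mlkl-null epithelium. The distal sum joins genes that differ in direction. Its member Fabp6 had 630 CPM in Casp8-mutant and 194 CPM in Mlkl-null epithelium. Sex and the stretch of gut sampled cannot be told apart from genotype here. A gene was measured in a class with at least 20 UMIs over both libraries, and was called lower or higher when its CPM differed 1.5-fold or more and the interval of the ratio did not hold 1 (the size rule).

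Over all epithelial cells, 9 of the 10 genes were lower in the Casp8-mutant library, 0 were higher, and Scarb1 met neither criterion. Of the 13973 genes measured there, 27.5% were lower and 22.8% higher by the same rule. The median log2 ratio of the 10 genes was -1.89, beside -0.17 over all genes measured. Their summed level was 2002 CPM in Casp8-mutant epithelium and 22747 CPM in Mlkl-null epithelium. The make-up of the epithelium differed as well: of the 588 Casp8-mutant epithelial cells, 166 were progenitor-like, 97 secretory, 158 distal enterocyte-like and 18 enterocyte-like, against 157, 85, 328 and 464 of the 1187 Mlkl-null epithelial cells. The remaining 149 Casp8-mutant and 153 Mlkl-null epithelial cells lay in unnamed clusters. The summed level of 24 enterocyte markers was 12587 CPM in the Casp8-mutant and 38379 CPM in the Mlkl-null epithelium. These markers include Apoa1, Apoa4 and Apoc3, which are also counted among the chylomicron genes below. Apoa4 alone had 2723 CPM in Casp8-mutant and 11284 CPM in Mlkl-null epithelium.

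**Figure D1:**
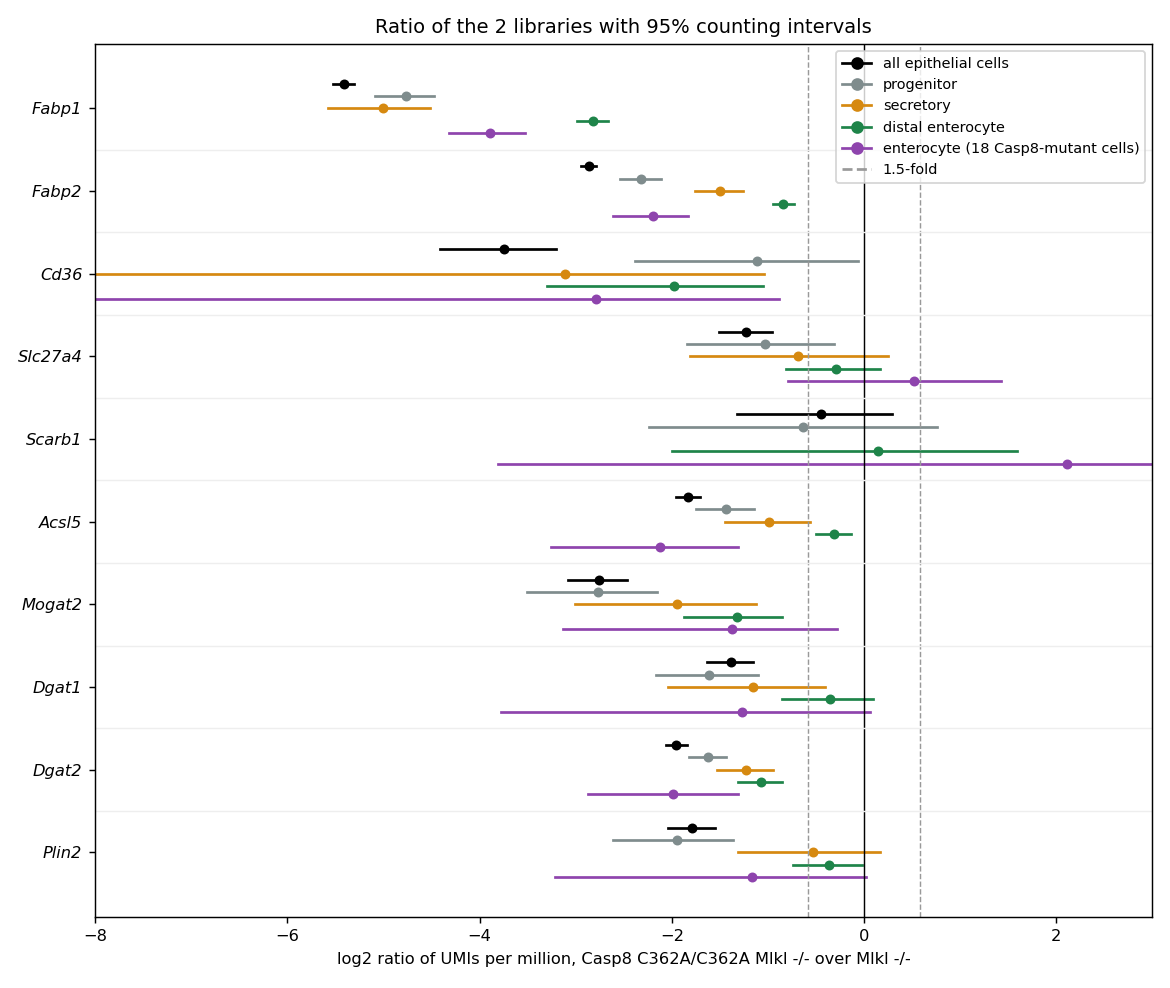
Ratio of CPM, Casp8-mutant over Mlkl-null, on a log2 axis, for the 10 genes in all epithelial cells and in 4 epithelial types. Points are ratios of summed UMIs, lines are 95% intervals for counting error, and dashed lines mark 1.5-fold. Over all epithelial cells (black) 9 of the 10 genes lie left of the dashed line, with Fabp1 at -5.41, while in distal enterocytes (green) only Fabp1, Fabp2, Cd36, Mogat2 and Dgat2 do.

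Fabp1, Fabp2 and Slc27a4 differ in the size of their epithelial difference, and the 300 bases around their starts (250 before, 50 after, from RefSeq on GRCm38.p6, the NCBI name of mm10) are shown to set the sequences beside the values. Each is written 5′ to 3′ on the plus strand of the genome, which is the strand of all 3 genes. The windows are chr6:71199629-71199928 for Fabp1, chr3:122894822-122895121 for Fabp2 and chr2:29802384-29802683 for Slc27a4. Capitals mark matches, on either strand, to 6 motifs. The GATA motif searched was AGATAA, which 11.2% of 32851 promoter windows of this length held. The CDX motif was TTTATG, held by 11.9%. The nuclear receptor motif was AGGTCA, held by 16.3%. The HNF1 motif was GTTAAT, held by 7.10%. The TATA motif was TATAAA, held by 13.6%. A STAT motif, TTC and GAA with 3 bases between them, was held by 8.30%.
Fabp1: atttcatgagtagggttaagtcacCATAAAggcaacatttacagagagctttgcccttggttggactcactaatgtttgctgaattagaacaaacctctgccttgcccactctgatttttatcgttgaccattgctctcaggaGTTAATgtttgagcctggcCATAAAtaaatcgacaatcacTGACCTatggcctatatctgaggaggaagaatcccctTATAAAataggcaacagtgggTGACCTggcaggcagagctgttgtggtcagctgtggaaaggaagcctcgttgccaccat
Fabp2: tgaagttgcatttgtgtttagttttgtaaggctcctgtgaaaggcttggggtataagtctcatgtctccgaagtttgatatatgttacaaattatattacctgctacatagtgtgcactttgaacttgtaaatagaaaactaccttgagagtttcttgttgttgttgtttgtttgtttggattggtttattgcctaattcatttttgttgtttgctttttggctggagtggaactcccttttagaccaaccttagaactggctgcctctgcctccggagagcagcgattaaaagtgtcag
Slc27a4: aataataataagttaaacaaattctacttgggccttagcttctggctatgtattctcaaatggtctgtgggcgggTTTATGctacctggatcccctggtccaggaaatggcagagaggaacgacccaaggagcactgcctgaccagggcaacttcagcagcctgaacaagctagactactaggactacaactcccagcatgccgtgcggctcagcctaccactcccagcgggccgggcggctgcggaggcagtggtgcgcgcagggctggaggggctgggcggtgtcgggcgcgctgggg
The Fabp1 window held 2 CDX matches, 2 nuclear receptor matches, 1 HNF1 match and 1 TATA match at base -30 from the RefSeq start. Neither Fabp2 nor Acsl5 had a match to any of the 6 motifs, and Slc27a4 had 1 CDX match. Windows were available for 6 of the 10 genes, and in the other windows a CDX and a nuclear receptor match overlapped by 2 letters in Cd36 and 1 nuclear receptor match lay in Plin2. The windows of Cd36 (chr5:17835847-17836146) and Acsl5 (chr19:55253119-55253418) lay inside the gene spans given below, not at the outer start of the gene. A match is a run of letters, not a site shown to be bound.

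Fabp1 encodes the liver-type fatty acid binding protein, one of the most abundant cytosolic proteins of the enterocyte, and lies on chromosome 6 at 71199827 to 71205023 (mm10, plus strand). It had 662 UMIs in Casp8-mutant epithelium and 74291 in Mlkl-null epithelium, which is 326 CPM in Casp8-mutant and 13909 CPM in Mlkl-null cells, a level 42.7-fold lower in the Casp8-mutant library (39.5 to 46.2). Of the 10 genes it had the largest difference. Fabp2, the intestinal-type binding protein (chromosome 3, 122895072 to 122899506, plus strand), was at 715 CPM in the Casp8-mutant and 5206 CPM in the Mlkl-null epithelium, 7.28-fold lower (6.91 to 7.68). An antisense gene overlaps Fabp2, and no source used here states whether counting took strand into account.

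Most of the Fabp1 signal lay in the mature classes. Distal enterocytes and the other enterocyte class held 51.5% and 8.16% of the epithelial Fabp1 UMIs in the Casp8-mutant library, against 16.4% and 64.5% in the Mlkl-null library. In distal enterocytes, named from markers of the lower small intestine such as the bile acid binding protein gene Fabp6, Fabp1 was at 1264 CPM in the Casp8-mutant and 8938 CPM in the Mlkl-null library, 7.06-fold lower (6.35 to 7.90). Fabp2 in the same cells was at 2921 CPM in Casp8-mutant and 5227 CPM in Mlkl-null cells, 1.79-fold lower (1.66 to 1.93) in the Casp8-mutant library. The class joined 2 clusters in unequal mixes, an Afp-led one with 139 Casp8-mutant and 171 Mlkl-null cells and a Fabp6-led one with 19 Casp8-mutant and 157 Mlkl-null cells, and within each cluster Fabp1 and Fabp2 differed more than in the class. In the Afp-led cluster Fabp1 was 9.24-fold lower (8.30 to 10.4), Fabp2 2.25-fold (2.08 to 2.43) and Cd36 6.30-fold (3.17 to 17.1). In the Fabp6-led cluster Fabp1 was 44.7-fold lower (19.6 to 184.7), from 4 Casp8-mutant UMIs, and Fabp2 3.87-fold (2.81 to 5.64), while Cd36, with 1 Casp8-mutant UMI, was 1.48-fold lower with an interval (0.371 to 88.7) that holds 1. The name rests on the markers as a set over both libraries. Fabp6 itself was at 1505 CPM in Casp8-mutant distal enterocytes and 3550 CPM in the 18 Casp8-mutant cells of the other enterocyte class. In the same classes of the Mlkl-null library it was at 572 CPM and 35.1 CPM. The 10 distal markers summed to 6395 CPM and 5359 CPM in these Casp8-mutant classes, against 4157 CPM and 1989 CPM in the Mlkl-null ones. The set thus separated the 2 classes little in the Casp8-mutant library. The other enterocyte class therefore sets Casp8-mutant cells high in distal markers against Mlkl-null cells lower in them. The mix of the carriers differed: for each 100 UMIs of Fabp1 there were 219 of Fabp2 in Casp8-mutant epithelium and 37.4 in Mlkl-null epithelium. In the 18 Casp8-mutant and 464 Mlkl-null cells of the other enterocyte class, Fabp1 was at 1809 CPM in Casp8-mutant and 27130 CPM in Mlkl-null cells and Fabp2 at 1909 CPM in Casp8-mutant and 8837 CPM in Mlkl-null cells, so Fabp1 was 14.9-fold lower (11.5 to 19.97) and Fabp2 4.59-fold lower (3.57 to 6.11).

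The spread of Fabp1 UMIs over cells differed between the libraries. A UMI of Fabp1 was found in 236 of 588 Casp8-mutant epithelial cells (40.1%, 36.1 to 44.2) and in 1186 of 1187 Mlkl-null ones (99.9%, 99.5 to 99.998, exact binomial intervals), at median depths of 2515 and 3905 UMIs per cell. When each cell was thinned to 2000 UMIs and shallower cells were left out (235 Casp8-mutant, 130 Mlkl-null), the shares were 21.5% in Casp8-mutant and 99.4% in Mlkl-null cells. In fibroblasts, which should lack the gene, the thinned shares were 27.8% in the Casp8-mutant and 97.7% in the Mlkl-null library, so a Fabp1 UMI by itself does not mark an expressing cell in either library. The number of UMIs per cell separates the cells better. At equal depth, distal enterocytes of the Casp8-mutant library had a median of 0 and a highest value of 21 Fabp1 UMIs (41 cells), against a median of 7 and a highest value of 134 in the Mlkl-null library (307 cells). The 59 Casp8-mutant epithelial cells with the most Fabp1 held 66.6% of its UMIs, and the 119 such Mlkl-null cells 30.6%, the same proportion of cells in each library. Fabp2 was found at equal depth in 95.1% of Casp8-mutant and 98.7% of Mlkl-null distal enterocytes, with medians of 5 UMIs in Casp8-mutant and 8 in Mlkl-null cells.

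**Figure D2:**
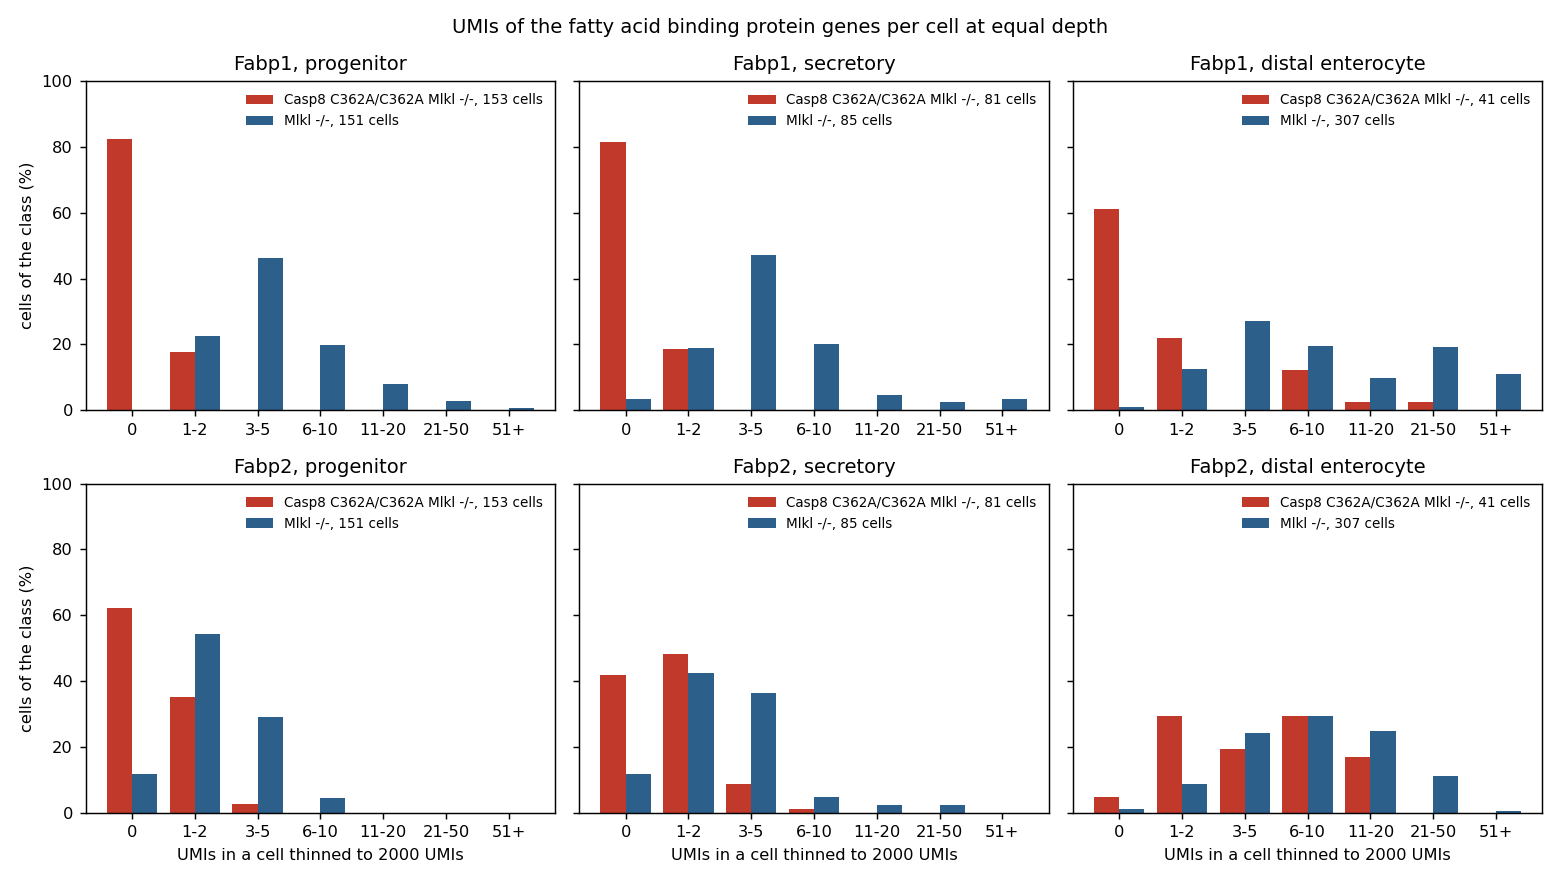
Share of cells (%, vertical axis) by the number of Fabp1 (top row) or Fabp2 (bottom row) UMIs in a cell thinned to 2000 UMIs (horizontal axis), in progenitors, secretory cells and distal enterocytes of the Casp8-mutant and Mlkl-null libraries. Most Casp8-mutant progenitors and secretory cells have 0 Fabp1 UMIs, and 25 of the 41 thinned Casp8-mutant distal enterocytes do too, while the Fabp2 distributions of the 2 libraries overlap in distal enterocytes.

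The low levels of the carriers in progenitors and secretory cells have to be read against cells that do not make them. In progenitors Fabp1 was at 94.6 CPM in the Casp8-mutant and 2587 CPM in the Mlkl-null library, and in secretory cells at 95.3 CPM in Casp8-mutant and 3098 CPM in Mlkl-null cells. Fibroblasts of the same libraries were at 170 CPM in Casp8-mutant and 1603 CPM in Mlkl-null cells, and myeloid cells and granulocytes together at 131 CPM in Casp8-mutant and 2370 CPM in Mlkl-null cells. Fabp2 was lower in these classes as well. It was at 157 CPM in Casp8-mutant and 662 CPM in Mlkl-null fibroblasts. In myeloid cells and granulocytes it was at 216 CPM in Casp8-mutant and 1082 CPM in Mlkl-null cells. The haemoglobin-dominated barcodes had 269 Fabp1 UMIs per 1000000 UMIs outside haemoglobin in the Casp8-mutant library (123 barcodes) and 8512 in the Mlkl-null library (52 barcodes). For each 100 of Fabp1 they held 223 Fabp2 UMIs in the Casp8-mutant and 42.4 in the Mlkl-null library. In the Casp8-mutant library, the progenitor and secretory levels of Fabp1 lay below that of fibroblasts, which rests on 27 UMIs. The ratios to fibroblasts were 0.550 (0.360 to 0.890) in progenitors and 0.559 (0.326 to 0.973) in secretory cells. Those to myeloid cells and granulocytes were 0.713 (0.476 to 1.12) in progenitors and 0.726 (0.429 to 1.23) in secretory cells, with intervals that hold 1. In the Mlkl-null library, progenitors were 1.61-fold above fibroblasts (1.46 to 1.79) and 1.09-fold above myeloid cells and granulocytes (0.988 to 1.21). Secretory cells were 1.93-fold above fibroblasts (1.74 to 2.15) and 1.31-fold above myeloid cells and granulocytes (1.18 to 1.45), and both comparisons with myeloid cells fell short of the size rule. Fabp1 was 27.2-fold lower (22.2 to 34.0) in Casp8-mutant than in Mlkl-null progenitors and 32.0-fold lower (23.0 to 47.7) in secretory cells, while it was 9.28-fold lower (6.40 to 14.5) in fibroblasts and 17.8-fold lower (12.5 to 26.9) in myeloid cells and granulocytes. By the size rule, 0 of the 10 genes in Casp8-mutant progenitors and 1 in Mlkl-null progenitors (Mogat2) were above both fibroblasts and myeloid cells of their library, beside 2 (Fabp2 and Acsl5) and 1 (Mogat2) in secretory cells and 8 and 8 in distal enterocytes. The same comparison was not made over all genes measured, so these counts have no background share beside them.

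**Figure D3:**
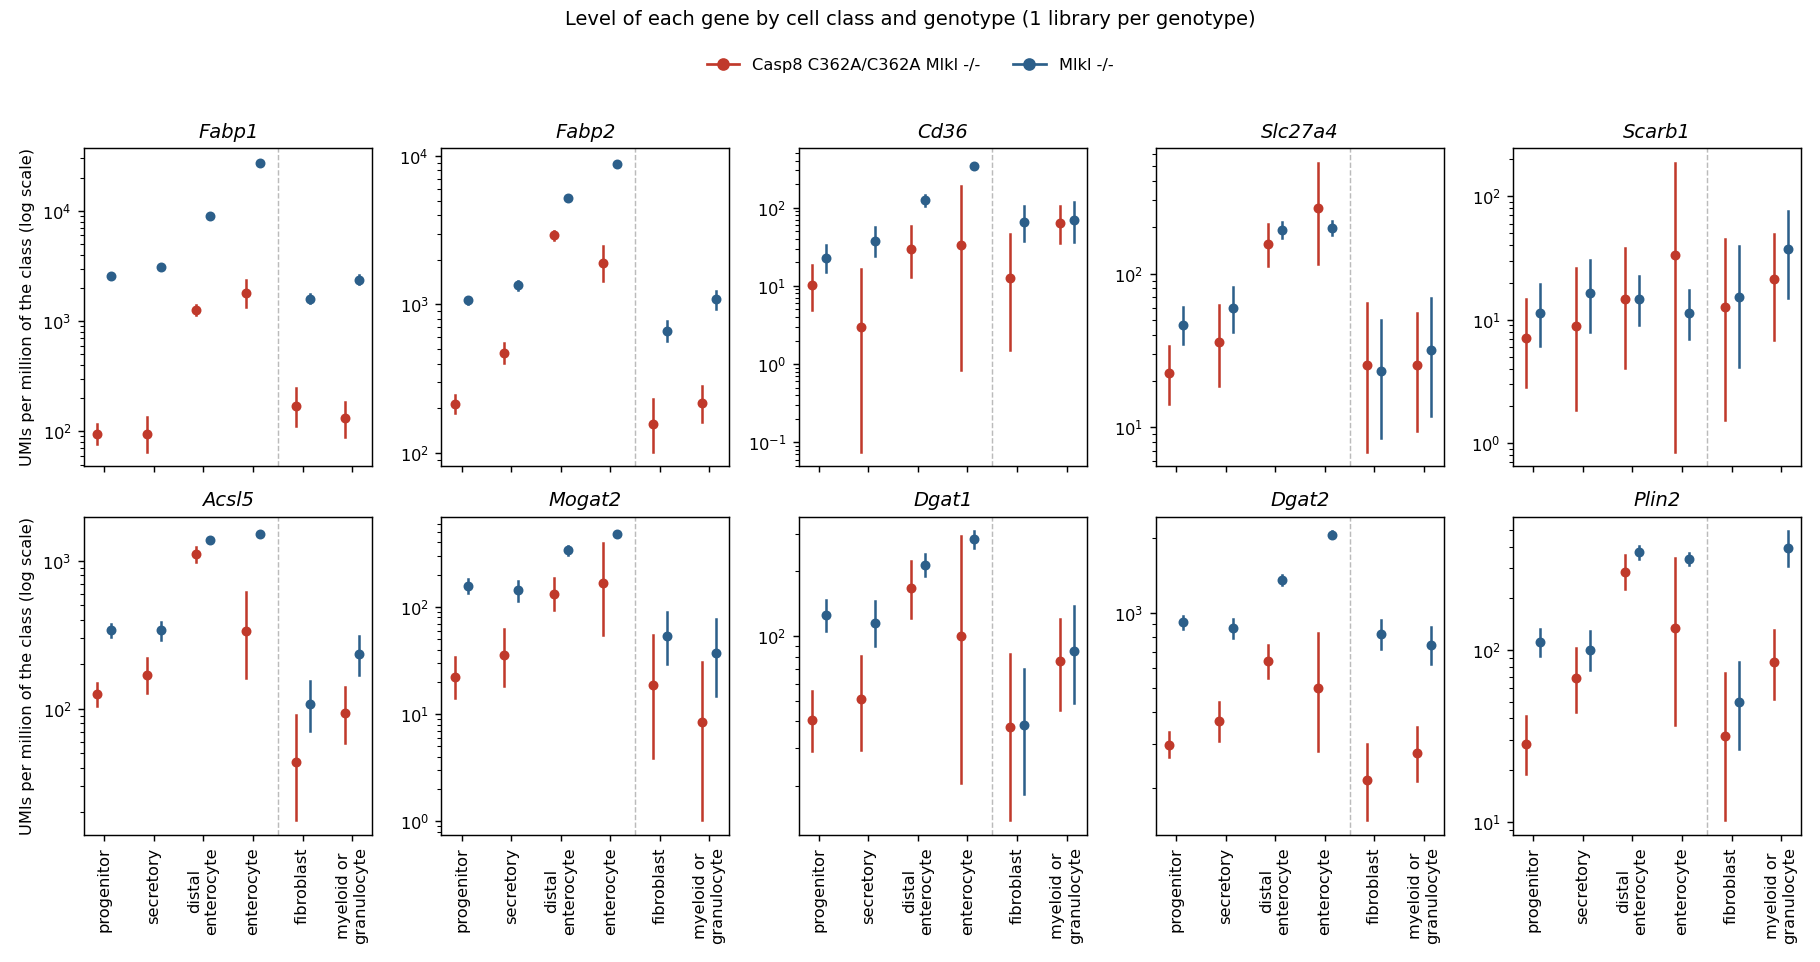
CPM of each gene (log axis, one panel per gene) in 4 epithelial types and, right of the dashed line, in fibroblasts and in myeloid cells with granulocytes, for the Casp8-mutant and the Mlkl-null library. Points are the level of the summed cells and lines exact Poisson 95% intervals. The points of every gene but Slc27a4 and Scarb1 are lower in the Casp8-mutant library in every class drawn, fibroblasts included. Some differences are small, as for Dgat1 in fibroblasts and Cd36 in myeloid cells with granulocytes. Acsl5, Slc27a4 and Plin2 have nearby points in distal enterocytes.

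Of the membrane proteins of uptake, Cd36 was much lower in Casp8-mutant epithelium and Scarb1 was too sparse to compare. Cd36, which encodes the fatty acid translocase (chromosome 5, 17781690 to 17888801, minus strand), had 25 UMIs in Casp8-mutant and 900 in Mlkl-null epithelium, or 12.3 CPM in Casp8-mutant and 168 CPM in Mlkl-null cells, 13.4-fold lower (9.22 to 21.3). In Mlkl-null cells 610 of its 900 epithelial UMIs came from the enterocyte class, where its level was 346 CPM, against 33.5 CPM from 1 UMI in the Casp8-mutant cells of that class. The class held different clusters: 365 of the 610 UMIs came from a Cd36-led cluster of 163 Mlkl-null cells, at 877 CPM, that had 2 Casp8-mutant cells. In the cluster with 16 of the 18 Casp8-mutant cells, Cd36 had 0 UMIs in Casp8-mutant cells and 182 CPM in 301 Mlkl-null cells. In distal enterocytes it was at 29.7 CPM in the Casp8-mutant and 124 CPM in the Mlkl-null library, 3.93-fold lower (2.07 to 9.81). Fibroblasts had 12.6 CPM of Cd36 in the Casp8-mutant library (2 UMIs) and 65.1 CPM in the Mlkl-null library (17 UMIs). The ratio of the epithelial to the fibroblast level was 0.798 (0.244 to 8.52) in Casp8-mutant and 2.52 (1.61 to 4.47) in Mlkl-null cells. Myeloid cells and granulocytes, which use CD36 as a scavenger receptor, had 63.5 CPM in Casp8-mutant and 68.9 CPM in Mlkl-null cells, a 1.09-fold difference (0.475 to 2.44), and 130 of the 130 Casp8-mutant but 12 of the 62 Mlkl-null cells of that class were in the cluster named for granulocytes. Slc27a4, the gene of FATP4 (chromosome 2, 29802634 to 29817522, plus strand), was at 63.5 CPM in Casp8-mutant and 149 CPM in Mlkl-null epithelium, 2.34-fold lower (1.94 to 2.85) in the Casp8-mutant library. In distal enterocytes its levels of 156 CPM in Casp8-mutant and 193 CPM in Mlkl-null cells differed by less than the size rule, 1.23-fold lower (0.891 to 1.76). Scarb1, the scavenger receptor SR-BI for cholesterol and lipids (chromosome 5, 125277087 to 125341094, minus strand), had 18 UMIs in Casp8-mutant and 66 in Mlkl-null epithelium, or 8.86 CPM in Casp8-mutant and 12.4 CPM in Mlkl-null cells, 1.37-fold lower with an interval of 0.818 to 2.50 that holds 1.

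Acsl5 joins fatty acids to coenzyme A, the step that commits them to triglyceride or other use, and lies on chromosome 19 at 55251938 to 55297720 (plus strand), overlapped by Zdhhc6 on the other strand. Its epithelial level was 297 CPM in the Casp8-mutant and 1054 CPM in the Mlkl-null library, 3.55-fold lower (3.26 to 3.87). In distal enterocytes it stood at 1112 CPM in the Casp8-mutant and 1384 CPM in the Mlkl-null library, which is 1.24-fold lower (1.10 to 1.41), and the size rule was not met. Its interval ended below 1.5-fold, which was so for no other of the 10 genes.

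The acyltransferases that build triglyceride were lower over the epithelium, Mogat2 by more than the 2 final enzymes. In distal enterocytes Mogat2 and Dgat2 met the size rule and Dgat1 did not. Mogat2, which makes diacylglycerol from the monoacylglycerol of digested fat (chromosome 7, 99219084 to 99238619, minus strand, with an antisense gene over it), was at 46.8 CPM in Casp8-mutant and 318 CPM in Mlkl-null epithelium, 6.78-fold lower (5.54 to 8.47). In distal enterocytes it was at 133 CPM in Casp8-mutant and 338 CPM in Mlkl-null cells, 2.50-fold lower (1.80 to 3.67) in the Casp8-mutant library. Mogat2 was lower in fibroblasts too, at 18.9 CPM in Casp8-mutant cells (3 UMIs) and 53.6 CPM in Mlkl-null cells (14 UMIs). Dgat2 (chromosome 7, 99153658 to 99182719, minus strand), one of the 2 enzymes that add the last acyl chain, was at 375 CPM in Casp8-mutant and 1453 CPM in Mlkl-null cells, 3.87-fold lower (3.60 to 4.18), and in distal enterocytes at 641 CPM in Casp8-mutant and 1352 CPM in Mlkl-null cells, 2.10-fold lower (1.80 to 2.48). Dgat2 was also lower outside the epithelium, with 214 CPM in Casp8-mutant and 823 CPM in Mlkl-null fibroblasts, 3.80-fold lower (2.67 to 5.70), and when the fibroblast level of each library was subtracted the distal enterocyte difference was 1.24-fold. Dgat1, the other enzyme of that step (chromosome 15, 76502015 to 76511953, minus strand), was at 80.7 CPM in Casp8-mutant and 212 CPM in Mlkl-null cells, 2.61-fold lower (2.22 to 3.11), but at 167 CPM in Casp8-mutant and 215 CPM in Mlkl-null distal enterocytes, 1.28-fold lower with an interval of 0.938 to 1.80. In fibroblasts Dgat1 had 37.7 CPM in Casp8-mutant and 38.3 CPM in Mlkl-null cells.

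Plin2 encodes the perilipin that coats cytosolic lipid droplets (chromosome 4, 86648386 to 86670060, minus strand). It was at 76.8 CPM in Casp8-mutant and 265 CPM in Mlkl-null epithelium, 3.45-fold lower (2.93 to 4.11). Its distal enterocyte levels were 285 CPM in Casp8-mutant and 370 CPM in Mlkl-null cells, 1.29-fold lower (1.02 to 1.67), short of the size rule. Secretory cells had 68.5 CPM in Casp8-mutant and 100 CPM in Mlkl-null cells, where the size rule was not met either, and progenitors 28.5 CPM in Casp8-mutant and 111 CPM in Mlkl-null cells, 3.85-fold lower (2.58 to 6.11) in the Casp8-mutant library. Plin2 was at 31.5 CPM in Casp8-mutant and 49.7 CPM in Mlkl-null fibroblasts, from 5 and 13 UMIs. In myeloid cells and granulocytes it was at 84.7 CPM in Casp8-mutant and 392.3 CPM in Mlkl-null cells, 4.55-fold lower (2.80 to 8.02). That class differed in make-up, with 130 Casp8-mutant but 12 of the 62 Mlkl-null cells in the granulocyte cluster, so different cells are compared.

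By type, the median difference of the 10 genes was smallest in distal enterocytes. There 5 of 10 were lower (Fabp1, Fabp2, Cd36, Mogat2 and Dgat2) and 0 higher, beside 15.5% lower and 9.09% higher among 7986 genes measured, with a median log2 ratio of -0.60 against -0.21 over all genes. In progenitors 9 of 10 were lower and 0 higher (29.7% and 16.5% of 9789 genes), with a median of -1.62 against -0.34. In secretory cells 7 of the 9 measured were lower and 0 higher (25.7% and 8.85% of 6100 genes), with a median of -1.23 against -0.40. In the other enterocyte class, with 18 Casp8-mutant cells, 6 of 10 were lower and 0 higher (3.74% and 5.36% of 8189 genes). Progenitors of the Casp8-mutant library came from 1 cluster led by Lyz2 and proliferation genes (166 of 166 cells), while 136 of the 157 Mlkl-null progenitors formed a cluster with 0 Casp8-mutant cells. The largest unnamed cluster (87 Casp8-mutant and 127 Mlkl-null cells, led by small nuclear and other noncoding RNAs) had Fabp1 at 255 CPM in Casp8-mutant and 26803 CPM in Mlkl-null cells.

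The distal enterocytes of the 2 libraries differed in RNA quality and in where their boundary fell. Casp8-mutant distal enterocytes had a median of 1645.5 UMIs and 7.23% of UMIs from 7 nuclear RNA genes, against 3997 UMIs and 3.49% in Mlkl-null ones. Among cells above the epithelial median for nuclear RNA alone, 152 Casp8-mutant and 207 Mlkl-null cells, again 5 of the 10 genes were lower, and Fabp1 was 6.96-fold lower. The share of all genes lower or higher was not counted within these cells, so that count has no background beside it. At a Leiden resolution of 2, 108 of the 158 Casp8-mutant and 42 of the 328 Mlkl-null cells moved into the other enterocyte class, which then had 121 Casp8-mutant and 501 Mlkl-null cells. In the 50 Casp8-mutant and 271 Mlkl-null cells left as distal, Fabp1 was 16.6-fold lower and Fabp2 3.17-fold lower, and Cd36 dropped below the size rule at 1.46-fold. In the enlarged enterocyte class Fabp1 was at 1741 CPM in Casp8-mutant and 26685 CPM in Mlkl-null cells, 15.3-fold lower (13.8 to 17.1), Fabp2 2.58-fold (2.39 to 2.79), Cd36 15.4-fold (6.75 to 63.9), Mogat2 3.06-fold (2.17 to 4.64), Dgat2 3.13-fold (2.64 to 3.77) and Dgat1 1.57-fold (1.13 to 2.31), while Acsl5, Slc27a4, Plin2 and Scarb1 met no criterion. That made 6 of 10 lower and 0 higher, beside 13.2% and 9.76% of 8772 genes. With the mix of the 4 named types held equal between the libraries, Fabp1 over the epithelium was 12.9-fold lower, Cd36 6.15-fold, Mogat2 3.32-fold, Fabp2 2.98-fold and Dgat2 2.88-fold, while Slc27a4 was 1.09-fold lower. In this alternative each type was weighted by its mean share of UMIs over the libraries. The enterocyte class at resolution 1 rested on 18 Casp8-mutant cells, with 8 UMIs of Slc27a4 (268 CPM). Cells of unnamed clusters, 149 Casp8-mutant and 153 Mlkl-null, were left out, and these values have no interval.

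Granulocyte transcripts were higher in every epithelial type of the Casp8-mutant library. The summed level of 12 granulocyte markers was 3542 CPM in Casp8-mutant and 34.3 CPM in Mlkl-null epithelium, with 0 and 2 of the 12 at 0 UMIs, 4015 CPM in Casp8-mutant and 23.5 CPM in Mlkl-null distal enterocytes, and 3221 CPM in Casp8-mutant and 23.0 CPM in Mlkl-null fibroblasts. Erythroid markers summed to 10537 CPM in Casp8-mutant and 3050 CPM in Mlkl-null epithelium. Their part in the levels of the 10 genes was not tested.

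Of 122 other genes measured in epithelium from lists of lipid pathways and of transcription regulators, 82 were lower and 7 higher in the Casp8-mutant library, beside 27.5% lower and 22.8% higher over all genes measured. Among other uptake, carrier and activation genes, 7 of 13 were lower and 2 higher. Dbi, which encodes the acyl-CoA binding protein, had 932 CPM in Casp8-mutant and 2585 CPM in Mlkl-null epithelium (2.77-fold lower, 2.64 to 2.91), and Acsl1, Slc27a1 and Acsl3 were 3.27-fold, 7.38-fold and 2.98-fold lower. The higher pair was Ffar4, a receptor for long-chain fatty acids, at 269 CPM in Casp8-mutant and 71.5 CPM in Mlkl-null cells (3.76-fold, 3.30 to 4.30), and Fabp6 at 630 CPM in Casp8-mutant and 194 CPM in Mlkl-null cells (3.25-fold, 2.995 to 3.53), and both were also higher in distal enterocytes, a class that Fabp6 helped to name. Outside the epithelium, Ffar4 was at 289 CPM in Casp8-mutant and 80.4 CPM in Mlkl-null fibroblasts, and at 318 CPM in Casp8-mutant and 79.5 CPM in Mlkl-null myeloid cells and granulocytes. Fabp6 was at 81.8 CPM in Casp8-mutant and 23.0 CPM in Mlkl-null fibroblasts. On the glycerol 3-phosphate route, which makes triglyceride without monoacylglycerol, 7 of 14 were lower and 1 higher: Gpd1, which forms glycerol 3-phosphate, was 9.26-fold lower (6.29 to 14.9), Agpat3 4.32-fold and the glycerol kinase gene Gk 3.03-fold, and the glycerol channel gene Aqp7 had 0 UMIs in Casp8-mutant and 25 in Mlkl-null epithelium. Agpat4 was higher, at 28.1 CPM in Casp8-mutant and 3.74 CPM in Mlkl-null cells.

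Genes of droplets and lipolysis had 7 of 12 lower and 2 higher. The droplet coat gene Plin3 was 3.21-fold lower, the lysosomal lipase gene Lipa 4.18-fold, Hsd17b13 3.40-fold and Cidec 3.03-fold. G0s2, an inhibitor of the adipose triglyceride lipase that is also expressed by neutrophils, had 425 UMIs in Casp8-mutant and 8 in Mlkl-null epithelium, or 209 CPM in Casp8-mutant and 1.498 CPM in Mlkl-null cells (132-fold higher, 70.2 to 326). Its Casp8-mutant level was 208 CPM in fibroblasts and 826 CPM in myeloid cells and granulocytes, against 76.5 CPM in fibroblasts and 5.30 CPM in myeloid cells and granulocytes of the Mlkl-null library, so the Casp8-mutant epithelial level was close to that of fibroblasts. The class of myeloid cells and granulocytes differed in make-up between the libraries, as given for Cd36. Hilpda was at 33.0 CPM in Casp8-mutant and 9.74 CPM in Mlkl-null epithelium and at 31.5 CPM in Casp8-mutant and 38.3 CPM in Mlkl-null fibroblasts. Of the chylomicron genes 10 of 12 were lower and 1 higher, with Apoc2 8.25-fold, Apoc3 6.47-fold, Tm6sf2 6.01-fold and Apoa4, a major chylomicron apolipoprotein, 4.14-fold lower, and the messenger RNA editing enzyme gene Apobec1 2.33-fold higher. In distal enterocytes Apoa4 was 1.09-fold lower and did not meet the size rule.

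Oxidation and ketogenesis genes had 21 of 24 lower and 0 higher. Acaa2, a thiolase of mitochondrial beta-oxidation, had 67.4 CPM in Casp8-mutant and 601 CPM in Mlkl-null epithelium, 8.88-fold lower (7.51 to 10.7). Hadh was 5.11-fold and Hadha 4.502-fold lower, and these 3 were lower in distal enterocytes as well, Acaa2 by 4.38-fold, Hadh by 2.27-fold and Hadha by 3.42-fold. Of the fatty acid and cholesterol synthesis genes 14 of 20 were lower and 1 higher, led by the desaturase gene Scd2 at 5.69-fold lower (5.19 to 6.26), with Idi1 1.98-fold higher.

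**Figure D4:**
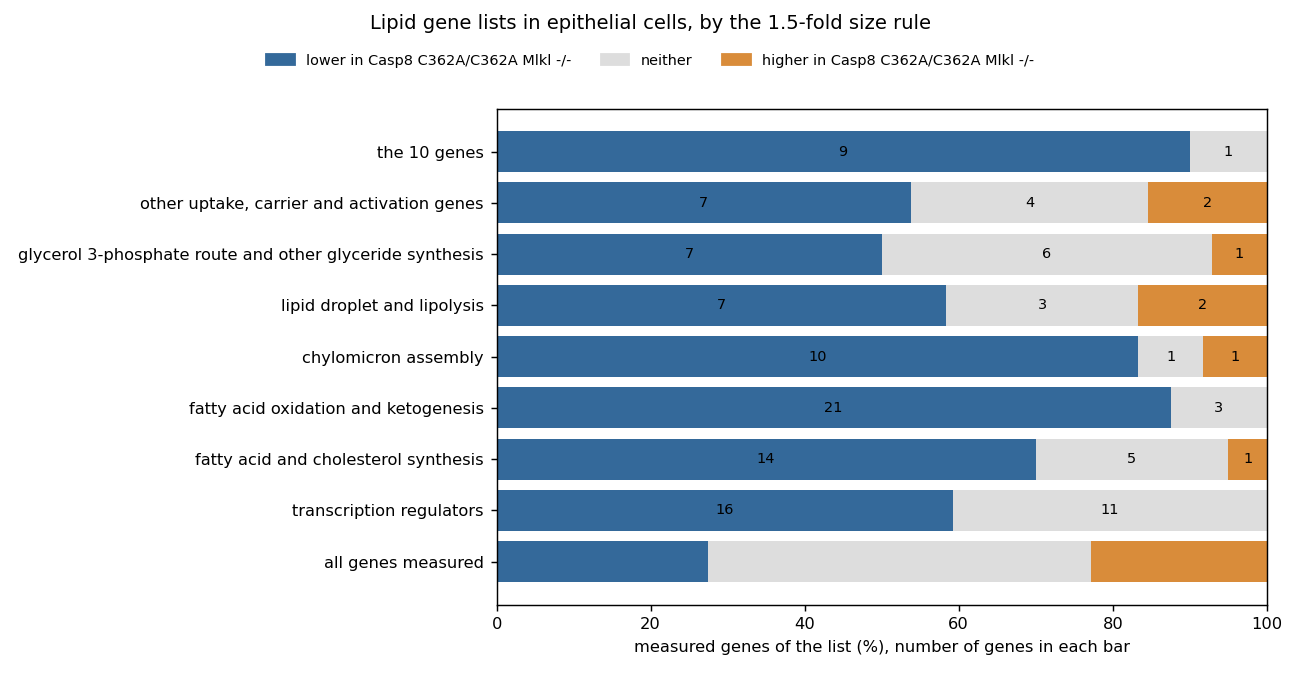
Share of the measured genes of each lipid list (%, horizontal axis) that were lower, neither or higher in Casp8-mutant than in Mlkl-null epithelial cells by the size rule, with the number of genes written in each bar. The 10 genes (9 lower, 1 neither) and the oxidation list (21 lower, 3 neither) have the largest lower shares, beside 27.5% of all genes measured.

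Among 27 transcription regulators of lipid and enterocyte genes, 16 were lower and 0 higher. Ppargc1a, a coactivator of oxidation genes, was 6.56-fold lower (3.82 to 13.4), the retinoid X receptor gene Rxra 5.25-fold (3.04 to 10.8), the fatty acid receptor gene Ppara 4.64-fold (2.31 to 12.6), Creb3l3 4.15-fold (3.57 to 4.88) and the enterocyte factor gene Maf 3.64-fold (3.36 to 3.94). Ppara rests on 7 UMIs in Casp8-mutant and 91 in Mlkl-null epithelium. Hnf4a, whose factor binds many enterocyte promoters, was at 109 CPM in Casp8-mutant and 111 CPM in Mlkl-null cells, while Gata4, Gata6, Hnf4g and Cdx2 were 2.43-fold, 2.42-fold, 2.36-fold and 1.55-fold lower, and Pparg and Ppard met neither criterion. In distal enterocytes 5 of 22 measured regulators were lower and 2 higher, where 15.5% of all genes measured were lower and 9.09% higher, so the share of higher regulators was at the background. The lower ones included Ppargc1a (7.21-fold), Rxra (5.76-fold) and Srebf1 (2.93-fold), and the higher pair was Hnf4a and Klf4.

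Across the 15 sums of 1 epithelial cluster in 1 library, which share library and depth, the levels of 9 of the 10 genes ran with one another. Pearson's correlation of log2(CPM + 10) with Fabp1 was 0.97 for Dgat2, 0.96 for Mogat2, 0.94 for Fabp2, 0.90 for Cd36, 0.87 for Plin2, 0.86 for Acsl5, 0.84 for Dgat1 and 0.77 for Slc27a4, and 0.05 for Scarb1. Among 5332 genes, those most like Fabp1 were Lpcat3 (0.96), Lct, the lactase gene (0.96), Tmem184a (0.96), Hadh (0.95) and Galm (0.95). Those most like the mean of the 10 genes were Tmem135, Galm, Ephx2, Tmem41a and Clint1, with correlations of 0.97 to 0.98. Within cells thinned to 2000 UMIs, the median epithelial cell held a UMI of 2 of the 10 genes in the Casp8-mutant library and of 6 in the Mlkl-null library, beside 1 and 3 in fibroblasts of the Casp8-mutant and Mlkl-null libraries and 1 and 4 in myeloid cells and granulocytes. At least 5 of the 10 were found in 39.0% of Casp8-mutant and 83.7% of Mlkl-null distal enterocytes. In fibroblasts the shares were 0% of 18 Casp8-mutant and 9.09% of 44 Mlkl-null cells. Myeloid cells and granulocytes had 2.56% in the Casp8-mutant and 27.8% in the Mlkl-null library, near the 2.47% and 27.1% of secretory cells.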

How the data were processed

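Single cells of intestine, labelled whole in one place and small in another, were made into libraries with droplet 3′ version 2 chemistry. The authors deposited raw counts of UMIs for each gene in each barcode, which were whole numbers throughout. Cell Ranger 3.0.2, Seurat 3.0 and mm10 are named per the submitters' processing notes, without their roles or the choice of barcodes. Gene symbols and coordinates are from GENCODE M21, which named 52489 of 52636 IDs.

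Cells with at least 500 genes and at most 20% mitochondrial UMIs were kept, and doublets were called with Scrublet in scanpy 1.11.5 (2 in Casp8-mutant and 4 in Mlkl-null, so undetected doublets are possible). Cells were clustered on 2000 variable genes per library, 30 components, 15 neighbours and Leiden resolution 1, without the 10 genes and the lipid lists. Epithelial cells were clustered again with each gene scaled within its library, and clusters were named from marker lists, needing 3 detected markers and 1 among the 10 leading genes. A type needed 50 cells per library for comparison, and the enterocyte values, from fewer cells, were an addition made with the cell numbers known.

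UMIs were summed per library and class, with 0.5 added to each sum for ratios. Ratio intervals are conditional exact and level intervals Poisson. Depth limits the precision, since a gene with 0 UMIs could have up to 3. The members and lists were chosen with earlier results of these data known. Listed genes are named by interval bound, up to 4 a direction. One gene that this rule names is not reported here. Alternatives changed filters, doublets, scaling, depth, pseudocount, size rule, clustering, nuclear RNA and free RNA.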

Additional observations from a re-analysis of the deposited data

Results flagged for a closer look

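Cd36 was present outside the classes compared above. The haemoglobin-dominated barcodes held 18 Cd36 UMIs over 15 of 123 barcodes in the Casp8-mutant library, which is 373 per 1000000 UMIs outside haemoglobin (221 to 589). The 52 such barcodes of the Mlkl-null library held 0, which allows up to 120 per 1000000 by the exact interval. Against 100 Fabp1 UMIs this makes 138 Cd36 UMIs in the Casp8-mutant barcodes, where the epithelium of the same library had 3.78. Dgat2 was also high in these barcodes, with 53 UMIs in the Casp8-mutant and 138 in the Mlkl-null library. For each 100 Fabp1 UMIs there were 408 of Dgat2 in the Casp8-mutant barcodes, against 115 in the epithelium of that library. The same values in the Mlkl-null library were 52.7 in the barcodes and 10.4 in the epithelium. The source of the Cd36 and Dgat2 transcripts was not tested.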

How the results depend on the processing

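No paired analysis was possible because each genotype has 1 library. Of 888 values recomputed, 0 turned the direction of a called difference. The counts of lower and higher members in each class moved by no more than 1.5 times under any setting that gave a value. The median log2 ratio of the 10 genes over the epithelium, -1.89, was -2.15 with at least 1000 genes per cell, -2.26 with cells thinned to 2000 UMIs, -1.63 as a mean over cells, -2.72 without cells rich in nuclear RNA, and, in alternatives added after seeing the data, -1.54 with those cells alone, -1.30 with the type mix held equal and -2.13 with the fibroblast level subtracted. With cells rich in nuclear RNA alone, 11 genes of the lipid and regulator lists were higher, against 7. Over all genes, 3842 lower and 3186 higher calls were 2289 and 1186 with at least 1000 genes per cell, 2259 and 1818 with cells rich in nuclear RNA alone, and 2475 and 2413 with a 2-fold size rule. Why these moved was not tested. Scaling by the median of ratios moved the median of all genes from -0.34 to -0.16 in progenitors and from -0.40 to -0.29 in secretory cells. Of 493 values of single members, 489 kept their sign and 57 moved beyond their counting interval. The 4 changes of sign were all in Scarb1, which was not called. Clustering each library alone left 43 Casp8-mutant distal enterocytes and 39 secretory cells, too few to compare. Calls per mean over cells, equal mix and subtraction used fold alone, without an interval. Depth limits Scarb1 and Cd36 in the Casp8-mutant library.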
